A study of Mus musculus with 2 samples.

Results

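The set described here was made of 1056 abundant retained-intron transcripts, out of 21848 transcripts of that type and 141767 annotated transcripts in all. The annotation (GENCODE M21 on mouse build mm10) gives this type to a transcript of a gene that keeps intronic sequence of that gene's other transcripts. Members were chosen by their measured counts: a mean of 100 or more estimated counts (est_counts, the fragments assigned to a transcript directly from the reads) over the 2 libraries. Their levels are therefore a description, and nothing in this design allows a test. The 1056 members belonged to 871 genes, 736 of them with 1 member and 135 with 2 or more, up to 8. Of the members, 1039 came from protein-coding genes and 17 from other genes.

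RNA came from the cytosolic fraction of bone-marrow-derived macrophages of the mouse strain C57BL/6J, which are primary cells. The cells had been treated with lipid A, the part of lipopolysaccharide that Toll-like receptor 4 binds, at 100 ng/ml for 75 minutes. Ribosomal RNA was depleted, 1 µg of total RNA entered each library, and the 2 libraries are numbered as biological replicates 1 and 2 of 1 group. Both carry 1 donor identifier, no label names separate animals or cultures, and sex and age were not collected, so the spread between the libraries may be partly technical. Untreated cells were not analysed here, so no value below is a response to lipid A.

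Introns are normally cut out of a transcript in the nucleus before it is exported, and a transcript that keeps an intron is often held in the nucleus. Those that reach the cytoplasm usually carry an early stop codon in the intron, which can mark them for nonsense-mediated decay, the pathway that degrades mRNAs with a premature stop. Macrophages and other blood cells are known to use intron retention to set the level of productive mRNA, and genes of splicing factors and RNA-binding proteins are well known for it.

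Several introns are printed here because they are short enough to read whole, lie between coding exons, and belong to members that results below turn on. Each sequence is the intron as it stands inside the retained-intron transcript, 5′ to 3′ on the gene's strand, in lower case. Capitals mark the GT at the start, the AG at the end and the first stop codon in the reading frame of the most abundant coding transcript that has the intron. Cd83-202 keeps intron 1 of 4 of a surface glycoprotein of activated antigen-presenting cells (chr13:43785251-43785345, mm10, plus strand). Ncl-202 keeps introns 9 and 10 of 13 of nucleolin, a major protein of the nucleolus, and intron 10 is shown (chr1:86352320-86352509, minus strand). Rps20-201 keeps intron 1 of 3 of a protein of the small ribosomal subunit (chr4:3835292-3835483, minus strand). Psmb8-205 keeps intron 3 of 6 of an immunoproteasome subunit (chr17:34199381-34199570, plus strand). Calr-204 keeps intron 4 of 8 of calreticulin, a chaperone of the endoplasmic reticulum (chr8:84844784-84844870, minus strand). Il17ra-203 keeps introns 9 and 10 of 12 of the interleukin-17 receptor A, and intron 10 is shown (chr6:120478176-120478374, plus strand).
Cd83-202 intron 1: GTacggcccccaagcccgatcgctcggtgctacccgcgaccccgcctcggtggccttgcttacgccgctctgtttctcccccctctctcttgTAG
Ncl-202 intron 10: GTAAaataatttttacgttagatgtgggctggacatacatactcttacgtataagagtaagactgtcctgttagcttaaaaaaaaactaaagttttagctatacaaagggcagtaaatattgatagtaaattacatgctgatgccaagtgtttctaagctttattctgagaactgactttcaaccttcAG
Rps20-201 intron 1: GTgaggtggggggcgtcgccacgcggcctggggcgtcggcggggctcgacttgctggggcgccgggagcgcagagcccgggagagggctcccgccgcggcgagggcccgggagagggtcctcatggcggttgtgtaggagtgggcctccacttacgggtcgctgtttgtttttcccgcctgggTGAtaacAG
Psmb8-205 intron 3: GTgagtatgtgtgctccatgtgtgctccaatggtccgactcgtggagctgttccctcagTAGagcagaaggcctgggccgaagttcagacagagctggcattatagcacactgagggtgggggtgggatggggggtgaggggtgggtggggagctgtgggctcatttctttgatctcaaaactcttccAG
Calr-204 intron 4: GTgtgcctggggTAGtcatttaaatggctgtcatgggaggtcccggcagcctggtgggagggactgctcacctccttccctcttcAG
Il17ra-203 intron 10: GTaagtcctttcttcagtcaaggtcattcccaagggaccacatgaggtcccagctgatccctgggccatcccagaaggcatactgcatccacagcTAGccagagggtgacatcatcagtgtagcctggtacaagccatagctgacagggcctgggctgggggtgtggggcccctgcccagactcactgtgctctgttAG

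In Cd83 the stop is the TAG that ends the intron, so its last 2 bases are also the AG of the splice site, 95 bases in. In Ncl intron 10 the stop TAA overlaps the GT of the splice site and ends 4 bases in. The stop ends 15 bases in for Calr, 62 for Psmb8, 98 for Il17ra intron 10 and 186 for Rps20, whose intron 1 is 71.9% G and C. For a longer example, Ccl2-202 keeps intron 2 of 2 of the monocyte chemoattractant CCL2, of 325 bases (chr11:82036601-82036925, plus strand). Its splice sites are given with 3 bases of the neighbouring exons and the GT or AG in capitals, and its stop TGA ends 4 bases in.
Ccl2-202 intron 2, start: agtGTgagttaca
Ccl2-202 intron 2, end: aacagtgtcttttctcttcccacAGttt

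The members held 0.989% of all estimated counts in replicate 1 and 1.14% in replicate 2, or 1.07% ± 0.108 (SD, n = 2). All 21848 retained-intron transcripts together held 1.19% and 1.55%, of which the members took 83.0% and 73.8%. Of the others, 6598 had 0 counts in both libraries. Counts were uneven: the median member had a mean of 204.9 counts, 514 members lay under 200, 112 reached 1000 and 5 reached 10000. The 12 most abundant members took 32.2% of the members' counts. Without those 12, the members held 0.643% and 0.803% of all counts.

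The threshold falls in the middle of a continuous range. Just inside it were Ccdc59-202 (41.0 and 159.6 counts in replicates 1 and 2), Oasl2-203 (83.8 and 116.7) and Ncor1-219 (112.4 and 88.0). Just outside were Wdr43-203 (111.4 and 88.2), Gripap1-209 (68.2 and 131.1) and Rps24-212 (45.3 and 154.0). Of the members, 766 reached 100 counts in each library, 255 in replicate 2 but not in replicate 1, and 35 in replicate 1 but not in replicate 2.

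Depth was high, with 65778686 estimated counts on annotated transcripts in replicate 1 and 62776345 in replicate 2, each transcript's estimate rounded to a whole number. Macrophage markers summed to 6118 and 6406 TPM, all 6 above 1 TPM. No marker of B cells, T and NK cells, erythroid or stromal cells reached 1 TPM, with sums of at most 0.47 TPM per list, and 1 marker each of the B cell, erythroid and stromal lists was at 0. Of 6 neutrophil markers 4 reached 1 TPM, and their sum was 32.5 and 34.7 TPM. RNAs listed here as nuclear, with a mean of 100 or more counts, were higher in replicate 2. Malat1 had 71646 and 292273 estimated counts, Neat1 had 6646 and 23438, and Xist had 1947 and 7961. All 7 of 7 such RNAs with a mean of 100 or more were over 2-fold higher there, by 2.41- to 6.75-fold (median 3.70). Gm26917 alone set the top of that range (8141 and 52372 counts), and the next highest was Xist at 4.29-fold. That each listed RNA stays in the nucleus of these cells was not tested.

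Most members were a small part of their gene's output. The share of a member is its count as a percentage of the summed count of all transcripts of its gene in that library. The median share was 4.19% in replicate 1 and 6.13% in replicate 2. Over the mean of both libraries the median was 5.33%, with quartiles of 2.11% and 14.4%. In both libraries 439 members stayed under 5% and 91 under 1%. At the other end, 58 members held 50% or more of their gene in both libraries, 50 of them in protein-coding genes. The median mean count of the gene was 682 for those 58 against 5209 for all members. In 96 cases the member was the most abundant transcript of its gene by estimated counts, and in 64 of them by expected counts as well.

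The most abundant member was Ctsb-202, from the gene of the lysosomal protease cathepsin B (chromosome 14, 63135518 to 63141863). It had 53158 counts in replicate 1 and 57512 in replicate 2, which was 5.63% and 5.55% of its gene. The coding transcript Ctsb-201 had 890289 and 978572. Of the 801 bases of Ctsb-202, 91 are found only in retained-intron transcripts, and the table of expected counts gave it 0.562% and 0.410% of the gene. High rank here therefore came with a small share and a split that differed between the quantifications.

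Cd83-202 (chromosome 13, 43785185 to 43803128), whose intron is printed above, was second with 43670 and 36460 counts. It took 70.7% and 60.8% of the gene, 65.7% ± 6.98 (SD, n = 2), and the coding transcript Cd83-201 took 29.3% and 39.2%. By expected counts the shares were 77.2% and 69.6%. In both libraries and both quantifications most counts of this gene were thus assigned to the form with intron 1, whose 95 bases of intron are the part found only in a retained-intron transcript.

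Gm43305-201, a transcript of a noncoding gene with a single exon (chromosome 14, 54292443 to 54297343), had 29690 and 22017 counts and 99.9% of its gene in both libraries. Its gene has no coding transcript, so no intron of one can be kept. By expected counts it held 98.7% and 99.0% of the gene, but with 2260 and 1632 counts, so the quantifications differ here in the count and not in the share. Itm2b-202, from a gene for an integral membrane protein that inhibits amyloid formation, had 30820 and 27797 counts. Its share was 28.3% and 26.2% by estimated counts and 12.7% and 11.8% by expected counts, and 78 of its 935 bases are found only in retained-intron transcripts.

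Ncl-202 (chromosome 1, 86350495 to 86359364) had 10646 and 9201 counts, 69.7% and 69.1% of the gene of nucleolin, or 69.4% ± 0.403. The coding transcript Ncl-201 took 30.1% and 30.6%. Expected counts gave Ncl-202 57.2% and 58.3%. The libraries lay closer together than the quantifications did, and all 4 values were above 50%.

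Il17ra-203 (chromosome 6, 120463247 to 120483729) differed far more between the quantifications. Its share was 74.9% and 78.3% by estimated counts but 10.2% and 24.8% by expected counts, where the coding transcript Il17ra-201 took 88.3% and 73.5%. Pirb-202 and Pirb-203 come from an inhibitory immunoglobulin-like receptor of myeloid cells. They held 61.4% and 24.9% of the gene in replicate 1 and 63.3% and 23.7% in replicate 2. By expected counts these shares were 35.7% and 12.5%, then 43.7% and 14.5%. Pirb belongs to a family of near-identical paired receptor genes whose reads can be divided wrongly, so its values are uncertain.

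The quantifications lay closer together for the cargo receptors of the early secretory pathway. Tmed10-202 held 54.4% and 51.3% of its gene, and 60.4% and 57.8% by expected counts. Of its 3181 bases, 2218 are found only in retained-intron transcripts. However, 2174 bases lie outside the span of the gene's coding transcripts, so most of its distinct sequence is not intron. Tmed7-202 held 77.3% and 78.2%, and 78.8% and 79.7% by expected counts. Vim-203, from the gene of the intermediate filament protein vimentin, held 8.01% and 7.77%, and 11.0% and 11.1% by expected counts. Among the 12 most abundant members, mean shares thus ran from 5.59% for Ctsb-202 to 99.9% for Gm43305-201.

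A share of counts depends on length, since a longer transcript gives more fragments. Divided by effective length, as the share of the gene's TPM, the mean over both libraries was 31.7% for Ctsb-202, 84.7% for Ncl-202, 57.1% for Il17ra-203, 34.8% for Vim-203 and 33.8% for Tmed7-202. Short members such as Ctsb-202 and Vim-203 thus weighed more per molecule, and Tmed7-202 weighed less. The median share of all members was 8.18% on this scale.

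**Figure D1:**
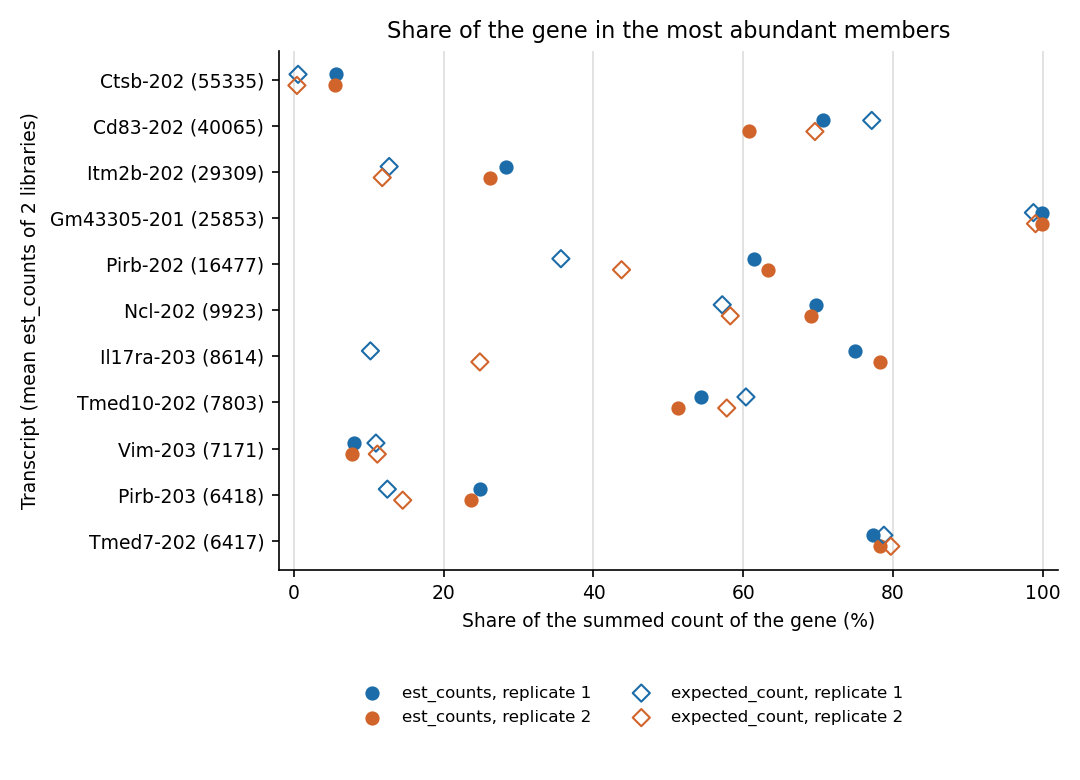
Share of the gene's summed count (x axis, percent) in 11 of the 12 most abundant members, ordered by mean estimated count (in brackets). Filled circles are estimated counts and open diamonds expected counts, in blue for replicate 1 and orange for replicate 2. For Il17ra-203 the circles stand at 74.9% and 78.3% and the diamonds at 10.2% and 24.8%, while the 4 symbols of Tmed7-202 lie between 77.3% and 79.7%.

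The expected counts, made by the authors from alignments to the transcriptome, divide the same reads again. They check the division of reads, not the cells. Their totals on annotated transcripts were lower, at 55590841 and 50150947 against 65778686 and 62776345 estimated counts. Counts were compared without scaling for this, which lowers expected counts against the same limits. By them 694 members (65.7%) also had a mean of 100 or more, 30 had 0 in both libraries, and 853 retained-intron transcripts reached the threshold, of which the 694 were 81.4%. Mean counts were over 2-fold apart in 319 members (30.2%), 285 lower and 34 higher by expected counts. Over all 17914 transcripts with a mean of 100 or more, 17.3% were over 2-fold apart. Because estimated counts chose the members, no direction is read from this. Shares followed each other with a Spearman rho of 0.799 across 1053 members, which are transcripts of the same 2 libraries and not independent, and the median share was 2.26% in replicate 1 and 4.27% in replicate 2.

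A group of 39 members in 39 genes held 50% or more of the gene in both libraries by both quantifications, and 32 of them were in protein-coding genes. Of the 39, 17 keep at least 1 whole intron, 14 part of one, and 16 overlap another gene. Their mean counts ran from 120.1 to 40065, with 15 at 1000 or more. The median SD of the share between the libraries was 1.97 percentage points, and the choice of shares of 50% or more in both libraries limits how far these can differ. Besides Cd83, Ncl and both Tmed genes they included Rbm15-202, Psmb8-205 and Rps16-203.

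Rbm15-202 comes from the gene of an RNA-binding protein that recruits the m6A methyltransferase. It had 3238 and 2825 counts, 67.7% and 67.3% of the gene, and 75.7% and 75.8% by expected counts. It has a single exon of 5967 bases, 3080 of them found only in retained-intron transcripts. Psmb8-205 had 2115 and 1734 counts, 61.1% and 59.1% of the gene, and 61.1% and 59.7% by expected counts. The coding transcript Psmb8-203 held 33.2% and 35.1%. Part of Psmb8-205 (376 bases) lies opposite the annotated gene Gm20496, and whether counting used strand is not stated.

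Rps16-203, from a gene of the small ribosomal subunit, had 4657 and 2446 counts, 65.7% and 51.2% of its gene, and 62.2% and 51.7% by expected counts. Rps20-201 was close to the limit, with 6743 and 4275 counts, 57.2% and 52.3% of the gene, and 53.9% and 48.7% by expected counts. Rps20-201 has 582 bases, 192 of them found only in retained-intron transcripts, and the coding transcript Rps20-203 has 3706. How many counts of Rps20-201 come from reads of mRNA without intron 1 was not tested. Ribosomal protein genes have many processed pseudogenes, so the counts of Rps16-203 and Rps20-201 are uncertain. H2-Q7-206, from a class Ib histocompatibility gene with close paralogs, held 68.6% and 72.5%, and 66.2% and 70.5%, and is uncertain for the same reason.

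The quantifications parted most over a small set. Gdap1-203 held 99.6% and 99.8% of a gene for a mitochondrial outer-membrane protein by estimated counts (1004 and 1196 counts) and 0% by expected counts. Strip2-203 (94.6% and 92.0%) and Oaz3-202 (100% and 98.7%) were also at 0 by expected counts in both libraries. Ttc25-204 and Iqcb1-204 were at 0 in replicate 1 and at 46.1% and 7.2% in replicate 2. In the other direction Cerk-202, from the gene of ceramide kinase, held 13.8% and 10.8% by estimated counts and 48.7% and 43.3% by expected counts, and Capns1-208, from the gene of the small calpain subunit, 16.9% and 17.0% against 47.3% and 44.0%. Il1rapl2-203, Vmn2r115-202 and Vmn2r120-212 held 100% of their genes by estimated counts, but their genes had no expected counts, so no share exists there. None of these shares is given weight below.

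**Figure D2:**
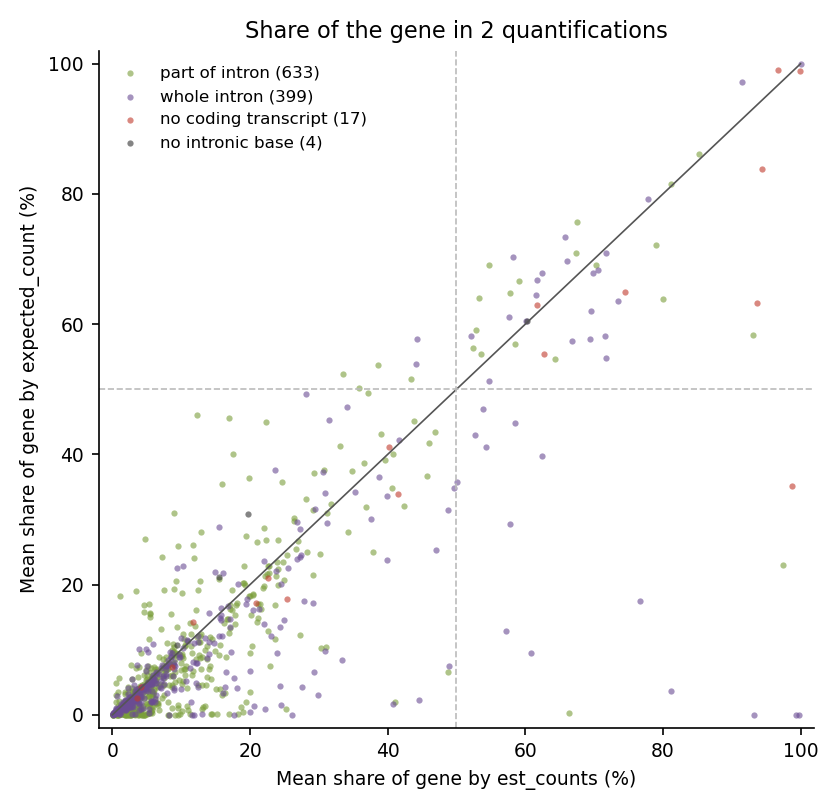
Mean share of the gene by estimated counts (x axis, percent) against that by expected counts (y axis, percent), 1 point per member for the 1053 members with both values, coloured by what the member keeps of a coding intron. The line marks equal shares and the dashed lines 50%. Points crowd near the origin, and several with over 90% on the x axis stand at 0 on the y axis.

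Members differed in how much intron they hold. A whole intron of a coding transcript lies inside an exon of 401 members (38.0%). A further 634 (60.0%) hold part of an intron, such as an exon that runs past its splice site or an end inside an intron. The remaining members were 17 of genes without a coding transcript and 4 with no intronic base. Median length was 2412 bases, from 311 to 19300. A median of 515 bases, or 31.1% of the length, is found in no other transcript type of the gene, and 216 members have under 100 such bases. For 106 members no base is their own, so their counts rest on how exons are combined. In 213 members part of the sequence overlaps another gene, on the opposite strand in 170 and on the same strand in 57, and 22 contain a small RNA gene.

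The introns kept whole were short. There were 655 different introns of 50 bases or more in 355 genes, with a median of 467 bases and quartiles of 170.5 and 1085.5. The 5852 introns kept by retained-intron transcripts outside the set had a median of 274 bases, and all 128656 introns of coding transcripts in genes whose mean reached 100 counts had 1410. Median G and C content was 49.3% in the members' introns and 51.1% in the 5852. The members' introns were thus longer than those of rarer retained-intron transcripts and shorter than introns at large, and the part of the counting rule in this, under which longer transcripts collect more fragments, was not tested.

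**Figure D3:**
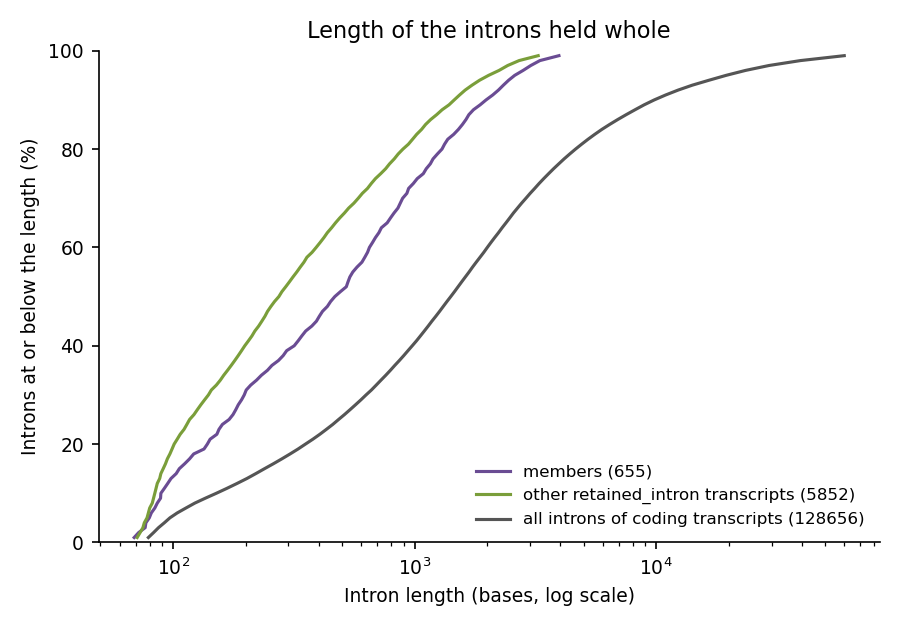
Cumulative share of introns (y axis, percent) at or below a length (x axis, bases, log scale) for introns kept whole by members, by other retained-intron transcripts and for all introns of coding transcripts, from the 1st to the 99th percentile. The curve of the members, with a median of 467 bases, lies between those with medians of 274 and 1410.

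Splice sites were of the usual kind. GT and AG ended 641 of the 655 introns (97.9%) and GC and AG ended 7, against 98.4% and 1.13% in the 5852. The donor of the minor spliceosome, searched on the gene's strand as ATATCC or GTATCC at the start of the intron, was found in 3 (0.458%), against 0.701%. These 3, named after their values were seen, are in Rfx5-216, a regulator of class II histocompatibility genes, and in Gbp5-205 and Gbp6-202, guanylate-binding proteins of cell-autonomous defence. First introns made up 15.9% and last introns 13.1%, against 12.1% and 8.36%.

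Reading through these introns would nearly always meet a stop. Coding exons flank 576 of the 655, and the reading frame could be followed into 556. A stop in frame occurred in 512 of them (92.1%), ending a median of 36 bases into the intron, against 89.3% and 38 bases in the 5852. In 44 no stop was met, with a median length of 99.5 bases, and 13 of the 44 have a length that keeps the frame. Tnfaip2-207 (169 bases of intron 5 of a gene induced by tumour necrosis factor) was among those without a stop.

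Genes of inflammation and of lysosomes held a member most often, while members of mitochondrial, antigen presentation and ribosomal protein genes had the larger shares. Of 6230 genes with a retained-intron transcript and a mean count of 100 or more, 871 (14.0%) held a member. The share of genes was 62.5% for cytokines and chemokines (10 of 16), 48.1% for lysosome and phagocytosis (25 of 52) and 47.5% for NF-kB and immediate-early genes (29 of 61). It was 40.7% for antigen presentation (11 of 27), 38.1% for the interferon response (16 of 42) and 35.1% for innate receptors and signalling (20 of 57). It was 10.2% for mitochondrial proteins (15 of 147), lower again for translation (8 of 80 genes), and 4.08% for cell cycle and DNA (2 of 49).

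How often a gene held a member moved with its own count, which the rule makes certain. Among genes with a mean of 100 to under 1000 counts 4.27% held a member, from 1000 to under 10000 it was 16.6%, and at 10000 or more 42.5%. The median gene of the lysosome list had 18534 counts, of the cytokine list 16502 and of the NF-kB list 6416, against 1458 over all 6230 genes and 1022 for the mitochondrial list. The part of gene level in the lists' order was not tested.

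By share other lists led. The list of ribosome biogenesis and nucleolus had a median of 22.6% over 4 members (15.4% by expected counts), and that of snoRNA hosts had 1 member at 25.4%. Among lists of over 10 members the median share was 22.0% in the 15 mitochondrial members, 10.9% in the 13 of antigen presentation and 10.1% in the 13 of ribosomal proteins. It was 5.15% in the 52 of splicing and pre-mRNA processing, 2.23% in the 43 of NF-kB and immediate-early genes and 1.79% in the 11 of cytokines. It was 0.857% in the 29 of cytoskeleton and motility and 0.742% in the 35 of lysosome and phagocytosis. By expected counts the medians of these 8 lists of over 10 members were, in the same order, 12.1%, 13.4%, 5.66%, 3.98%, 1.53%, 1.61%, 0.598% and 0.411%. The median count of the members' genes was, in the same order, 1294, 3862, 9706, 4147, 12036, 23924, 25698 and 33310.5. Not all lists of over 10 members are named in that order. The lowest of all was iron, redox and lipid, at 0.424% over 11 members (0.459% by expected counts). The rest lay within the range of estimated-count medians given. The part of gene level in the order of shares was not tested. Lists covered 393 members, and 663 members were in no list, with a median share of 6.35%.

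**Figure D4:**
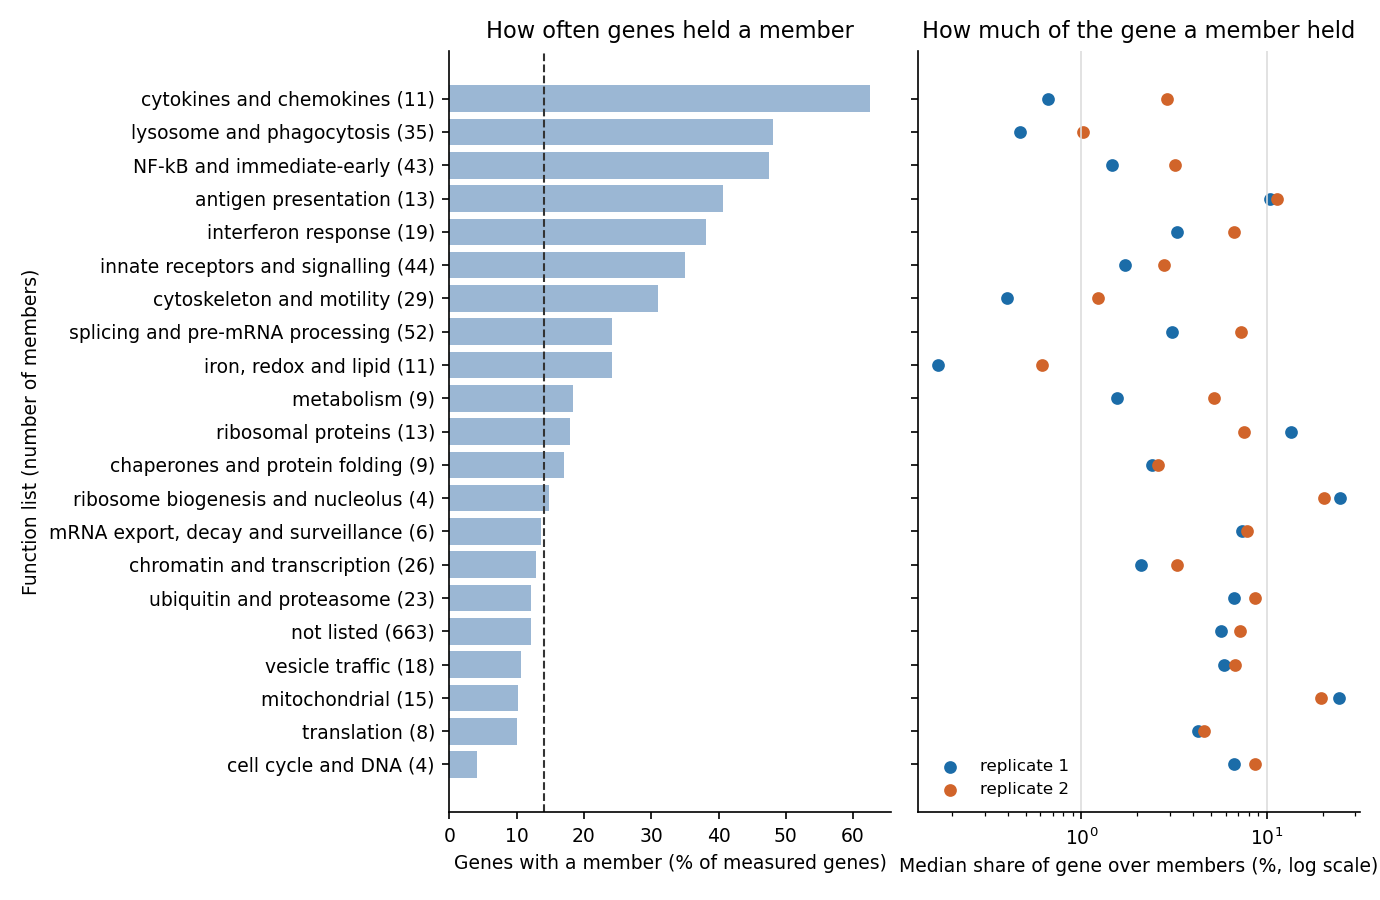
Left, percent of measured genes of each function list with at least 1 member (bars; the dashed line is 14.0% over all 6230 genes), with the number of members in brackets. Right, median share of the gene over the members of the list (percent, log scale) in replicate 1 (blue) and replicate 2 (orange), for lists with 10 or more measured genes. Cytokines and chemokines lead on the left at 62.5%, while mitochondrial members lead on the right among lists of over 10 members.

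Among the secreted proteins, Ccl6-202 had 3596 and 2848 counts, 21% and 19.1% of the gene, but 3.54% and 3.33% by expected counts. Ccl5-202, from the gene of the T cell attractant RANTES, had 635 and 1662 counts, 7.71% and 26.3% of the gene, and 5.07% and 20.1% by expected counts. Ccl2-202, whose splice sites are printed above, had 394 and 1221 counts, 0.660% and 2.91% of the gene. For Ccl5 and Ccl2 replicate 2 was the higher in both quantifications, and for Ccl6 the replicates were close.

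Early-response genes gave members with a median share of 2.23%, from 0.121% to the 65.7% of Cd83-202. Tnfaip2-207 had 3304 and 6276 counts, 1.60% and 3.63% of the gene. Pim1-204, from the gene of a serine/threonine kinase, went the other way, with 8498 and 589 counts, 11.2% and 0.918%, and 12.3% and 2.33% by expected counts. It has 20 bases found only in retained-intron transcripts, and 439 of its bases lie opposite the annotated gene Gm26885.

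Of the splicing list, Rsrp1-204 had 421 and 1574 counts, 17.8% and 44.0% of the gene of an arginine- and serine-rich protein. Srsf5-212, from the gene of an SR protein that binds exonic enhancers, had 320 and 731 counts, 3.06% and 7.34%. Both were higher in replicate 2 by expected counts as well, at 20.8% and 47.2% for Rsrp1-204 and 2.48% and 7.52% for Srsf5-212. Of the 52 members of this list, 33 (63.5%) had an over 2-fold higher share in replicate 2 and 1 an over 2-fold lower share, against 33.6% and 1.70% of all members and 4.47% and 1.77% of all transcripts with a mean of 100 or more. Of the 33, 18 reached 100 counts in replicate 2 alone.

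Calr-204, whose intron is printed above, had 4018 and 5328 counts, 14.2% and 13.3% of the gene, and 8.40% and 8.95% by expected counts. Its share differed more between the quantifications than between the libraries.

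For genes of antiviral defence, Ifi205-202 held 13.0% and 17.8%, Ifih1-203, from the gene of the RNA sensor MDA5, 16.7% and 21.8%, and Ifi203-207 3.83% and 11.7%. Ifi205 and Ifi203 are close paralogs and their split is uncertain. Of the lysosome list, Slc15a3-203, from the gene of a histidine and peptide transporter, had 4839 and 5842 counts, 15.6% and 16.4%, and 21.5% and 22.2% by expected counts. It shares 1541 bases with Tmem132a on the opposite strand. Cd14-202, from the gene of the co-receptor for lipopolysaccharide, had 4711 and 4268 counts, 5.77% and 5.59%.

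Mitochondrial members had large shares, mostly in less abundant genes, with a median gene count of 1294 against 5209 for all members. Slc25a37-203, from the gene of the iron importer mitoferrin 1, had 1928 and 4116 counts, 39.4% and 69.2%, and 29.7% and 52.7% by expected counts. Its gene was not among the less abundant, with a mean of 5423 counts. In Slc25a37-203, 381 bases lie opposite the annotated genes Gm27223 and Gm31748. Atp5j-208, from a subunit gene of ATP synthase, had 1110 and 646 counts, 49.0% and 37.9%, and 56% and 47.3% by expected counts. Cox7b-203, from a subunit gene of cytochrome oxidase, had 31.0% and 19.5% but 0.599% and 1.24% by expected counts.

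In 135 genes several members shared the reads of the gene, so they are not independent. The genes named in this paragraph were chosen after their values were seen. Lilrb4a and Lilr4b, inhibitory immunoglobulin-like receptors of myeloid cells, had 8 members each. Summed, the members of Lilrb4a held 39.2% and 73.5% of the gene, and those of Lilr4b 27.7% and 52.2%. By expected counts the sums were 29.3% and 55.4%, and 25.5% and 49.4%. These are near-identical neighbours, most of their members overlap the annotated gene Gm49339, and the division of reads among them is uncertain. The 5 members of Ptprc, the leukocyte common antigen CD45, held 4.52% and 8.89% together, and the 4 of Nfkb1, the p105 and p50 subunit of NF-kB, 7.15% and 23.5%.

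The libraries differed in the members. After TMM scaling (library sizes set so that most transcripts do not differ), 367 members were over 2-fold higher in replicate 2, or 34.8%, and 21 over 2-fold lower, or 1.99%. Over all 17914 transcripts with a mean of 100 or more the figures were 5.65% higher and 2.59% lower. Measured as a share of the gene, which removes any change of the gene as a whole, 355 members were over 2-fold higher (33.6%) and 18 lower (1.70%), against 4.47% and 1.77% over all transcripts. In both quantifications 328 were over 2-fold higher in share and 4 lower. A transcript can enter the set through replicate 2 alone, and the 255 that did so had to be higher there. Of the 766 with 100 or more counts in each library, 163 were over 2-fold higher and 11 lower in count.

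The difference followed how much of a member is found only in retained-intron transcripts, called retained sequence here. It is not all intron. In 67 members 50 or more bases lie outside the span of the coding transcripts, and they count where no other transcript type has them. In 239 members with under 10% of their length found only in retained-intron transcripts, the median share ratio of replicate 2 to replicate 1 was 0.970-fold, with 17 members over 2-fold higher and 12 lower. In 434 members with 10% to under 50% it was 1.18-fold, with 115 higher and 6 lower. In 383 members with 50% or more it was 2.39-fold, with 223 higher (58.2%) and 0 lower. By expected counts the 3 medians were 1.02-, 1.26- and 2.65-fold. Among members with 100 or more counts in each library they were 0.970-fold (211 members), 1.09-fold (338) and 1.77-fold (217). The limits of 10% and 50% were set after the values were seen.

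Other transcript types at the same threshold did not shift in the median. The median share ratio was 0.995-fold in 14888 protein-coding transcripts, 0.998-fold in 780 transcripts annotated for nonsense-mediated decay and 1.00-fold in 643 processed transcripts. Away from the median, 10.6% of processed transcripts were over 2-fold higher in share in replicate 2 and 3.42% lower. For nonsense-mediated decay the figures were 5.26% and 3.08%, and for protein-coding transcripts 2.22% and 1.69%. The RNAs listed as nuclear were higher in replicate 2 by a median of 3.70-fold, as given above. The part of nuclear RNA in the difference between the libraries was not tested. In such bulk samples a difference in the number of cells of a kind and in RNA per cell cannot be told apart.

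**Figure D5:**
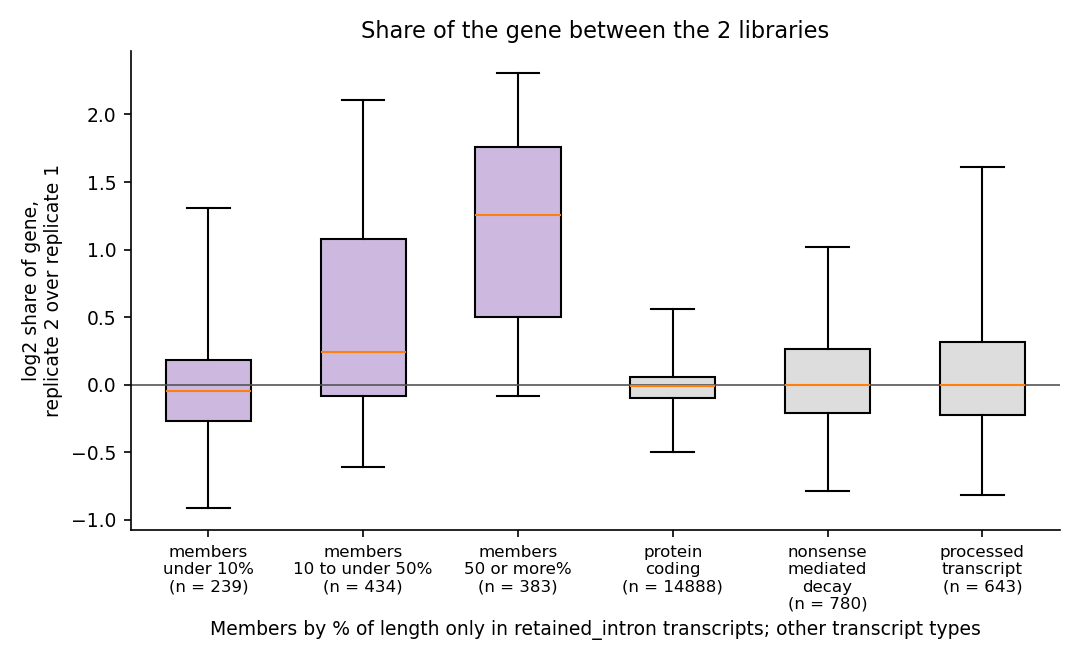
Log2 ratio of the share of the gene in replicate 2 to that in replicate 1 (y axis), for members by the percent of their length found only in retained-intron transcripts and for 3 other transcript types with a mean of 100 or more counts. Boxes show the median and quartiles, and whiskers the 5th and 95th percentiles over transcripts. The median of members with 50% or more lies at 1.26, and those of the other types lie at about 0.

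The ratio was also compared between members of 1 gene. Vimentin had 3 members, described here after their values were seen. Vim-203, with 52 such bases of 535, had 8.01% and 7.77% of the gene. Vim-204, with 80 of 926, had 0.0817% and 0.295% (77.7 and 254.8 counts). Vim-205, a single exon that keeps intron 1 and has 2393 of 2926, had 0.358% and 1.47% (340 and 1273 counts). Vim-204, with little retained sequence, and Vim-205, with much, were both higher in replicate 2, by 3.59-fold and 4.11-fold in share, and Vim-203 was not. Of 24 genes whose members lie 50 percentage points or more apart in retained sequence, the member with more of it had the higher ratio in 20, and in 19 by expected counts. The median difference was 2.26-fold. Over all 135 genes with several members it had the higher ratio in 86, and the median difference was 1.22-fold. Both comparisons kept members that reached the threshold in replicate 2 alone, Vim-204 among them, and such members had to be higher there. The comparisons were not repeated without such members, so the part of the threshold in the result was not tested.

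The lists differed in the same ratio. Over all members the median share ratio was 1.28-fold, with 33.6% over 2-fold higher in replicate 2, against 4.47% of all transcripts. It was 4.32-fold for cytokines and chemokines (8 of 11 members over 2-fold higher), 3.05-fold for cytoskeleton and motility (18 of 29), 2.99-fold for metabolism (6 of 9) and 2.61-fold for iron, redox and lipid (6 of 11). It was 2.49-fold for splicing and pre-mRNA processing (33 of 52) and 2.44-fold for NF-kB and immediate-early genes (30 of 43). It was 1.06-fold for antigen presentation (2 of 13), 0.907-fold for mitochondrial proteins (3 of 15) and 0.863-fold for ribosomal proteins (2 of 13).

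Part of these counts came from members that reached the threshold in replicate 2 alone, 200 of the 355 in all. Among the 766 members with 100 or more counts in each library, a restriction added after the data were seen, 155 (20.2%) were over 2-fold higher in share and the median was 1.10-fold. There the median was 4.32-fold for cytokines and chemokines (7 of 9), 2.36-fold for metabolism (4 of 7), 2.34-fold for NF-kB and immediate-early genes (18 of 28) and 1.91-fold for iron, redox and lipid (3 of 8). It was 1.83-fold for splicing and pre-mRNA processing (15 of 32) and 1.77-fold for cytoskeleton and motility (6 of 15). It was 1.06-fold for antigen presentation (0 of 10), 0.863-fold for ribosomal proteins (1 of 11) and 0.838-fold for mitochondrial proteins (1 of 10).

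Single members differed between the libraries in both directions. In percentage points the members furthest above replicate 1 in replicate 2 were Gm14391-205 (47.5% and 86.0% in replicates 1 and 2), Amn1-210 (23.6% and 53.8%), Slc25a37-203 (39.4% and 69.2%), Sfi1-215 (14.4% and 41.4%) and Rsrp1-204 (17.8% and 44.0%). Those furthest below were Krr1-201 (74.0% and 43.1%), Atrip-205 (52.9% and 34.8%), Slc52a2-202 (58.7% and 41.4%), Atg4d-203 (79.9% and 63.4%) and Apbb3-204 (59.9% and 44.4%). By expected counts each of these 10 differed in the direction given. The bases found only in retained-intron transcripts numbered 5156 in Gm14391-205, 15096 in Amn1-210, 1245 in Slc25a37-203, 2429 in Sfi1-215 and 13 in Rsrp1-204. In the 5 members that were lower in replicate 2 they numbered 77 to 242. Members on both sides lie partly opposite other annotated genes, among them Krr1-201 (352 bases, Glipr1), Atg4d-203 (289 bases, Kri1) and Slc25a37-203 (381 bases). Whether counting used strand is not stated, so their differences are uncertain.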

How the data were processed

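The 2 libraries of 1 group were made from total RNA after ribosomal RNA depletion. The deposited data hold 2 transcript tables per library. Estimated counts (est_counts) were quantified by the authors directly from the reads, per the deposited read-me files. Expected counts, with their posterior SD, were quantified by the authors from alignments to the transcriptome, per the same deposited files. TPM values were computed by the authors by dividing counts by effective length and scaling each library to a fixed total, per the file headers. Both use mm10 and GENCODE M21, per the deposited read-me files, and for the aligner, the quantifier, their versions and the strand setting the entry is: not given in the sources used here. Both deposited tables rest on the same reads.

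Transcript type was read from the identifiers, and structure and intron sequence from the GENCODE M21 annotation and transcripts. The 97 spike-in RNAs (0.234% and 0.179% of estimated counts) were left out. A share is a transcript's count over the summed count of its gene. For ratios of counts between libraries, counts were scaled by TMM (edgeR 4.0.16 in R 4.3.3). The TMM sizes came from rounded counts of 39550 transcripts with a mean of 10 or more. Ratios of shares used no such scaling. In both kinds of ratio 0.5 was added to the counts, and over 2-fold was counted. With 2 libraries of 1 group no test was made, and errors are SDs over n = 2. Other work used Python 3.11.15, numpy 2.4.6, pandas 2.3.3 and matplotlib 3.10.9, and the scripts were tested on simulated data.

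Named are the 12 members of highest mean count, the 10 of highest share, up to 3 per function list, up to 5 in each direction by difference in share between libraries and between quantifications, and 3 on either side of the threshold. The text leaves some out, and 1 of the 12 is not reported here. The members and lists were chosen with earlier results of these data known. Alternatives were the other quantification, other thresholds and denominators, TPM, DESeq2 1.42.0 size factors, library totals, another added count and each library alone.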

Additional observations from a re-analysis of the deposited data

How the results depend on the processing

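The number of members was 1950 at a mean of 50 or more and 542 at 200 or more, and their median share was 1.59% above a mean of 10, 8.55% at 200 or more and 8.18% as a share of TPM. Members at 50% or more of the gene in both libraries numbered 215 above a mean of 10, and 95 with protein-coding transcripts plus the member as denominator. The members held 0.265% of all TPM, and 1.37% of counts with protein-coding genes alone. Alternatives added after the data were seen gave 694 members at 100 or more in both quantifications, a median share of 3.45% by expected counts of the same members, and 0.723% of all counts without the 12 most abundant members. With 100 or more in each library 174 members were over 2-fold apart (163 higher, 11 lower in replicate 2) and the median log2 ratio was 0.14. It was 0.69 with 100 or more bases found only in retained-intron transcripts. With each library alone, members numbered 858 to 1295, their median share was 5.31% to 6.25%, 62 to 70 held 50% or more of the gene, and members held 0.989% to 1.14% of all counts. Ratios between libraries cannot be made with 1 library left out. The other 37 values of these main results moved by less than the limits used, and none reversed. No paired analysis was possible because there is 1 group. Reads common to several transcripts limit all shares. As far as depth alone goes, a 0 means under 3 counts per library. A transcript at 0 in 1 quantification can still have many counts in the other. Gdap1-203 was at 0 by expected counts and had 1004 and 1196 estimated counts.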
